A study of Rattus norvegicus with 12 samples.

Results

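The genes described here carry the insulin signal from its receptor to glucose uptake, lipolysis and gene regulation. They are 10 listed insulin signalling genes (Insr, Irs1, Irs2, Pik3r1, Akt1, Akt2, Slc2a4, Tbc1d4, Foxo1 and Pde3b), found by their rat Entrez identifiers in a table of read counts for 16511 genes. Counts were found for 9 of the 10, namely Insr (24954), Irs1 (25467), Irs2 (29376), Pik3r1 (25513), Akt1 (24185), Akt2 (25233), Slc2a4 (25139), Foxo1 (84482) and Pde3b (29516), and Tbc1d4 was not analysed here. RNA was sequenced from 12 whole rat mammary glands snap frozen at postnatal day 21, each from a different litter. In 6 of them the prenatal diet was high fat with butter (HFB), in the other 6 it was the AIN control diet (CTL), and the newborns of both groups are described as receiving AIN. The deposited design names more than a single end of the prenatal exposure, so the exposure window is not certain, and strain and sex of these animals are not stated in the labels. Libraries are named by diet and number (HFB 1 to 6, CTL 7 to 11 and CTL 14). In bulk tissue of this kind, fewer cells of a type and less RNA per cell cannot be told apart.

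Insulin binds a receptor tyrosine kinase, which phosphorylates insulin receptor substrates, and these recruit phosphoinositide 3-kinase to the membrane. The lipid it makes brings Akt kinases to the membrane, where they become active, send vesicles of the glucose transporter Glut4 to the cell surface, keep Foxo1 out of the nucleus and, through the phosphodiesterase Pde3b, restrain lipolysis. Fat and skeletal muscle are the classic Glut4-expressing targets of insulin, and before puberty the rat mammary gland is a small epithelial tree within a large fat pad.

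Total counts per library ran from 2320267 to 2760871 with HFB (median 2660268) and from 2403464 to 2944680 with CTL (median 2537563.5). Levels are given as CPM, counts scaled to library size with the TMM factors of edgeR. A gene was held detectable from 3 counts, and this limit covers counting error only. Scaled to total counts without the TMM factors, it is 1.02 CPM in the deepest and 1.29 CPM in the shallowest library. All 9 genes passed the filter on low counts, and their lowest count in a library was 2 for Foxo1, 4 for Insr, Irs1 and Pik3r1, 24 for Pde3b, 27 for Akt2, 30 for Irs2, 48 for Akt1 and 349 for Slc2a4.

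The glands carried the markers of a fat-rich mammary gland. The adipocyte gene Fabp4 lay between 11394 CPM (CTL 14) and 25255 CPM (HFB 5), and the luminal keratin gene Krt8 between 41.7 CPM (HFB 3) and 222 CPM (HFB 6). Muscle was present in variable amounts, since Acta1, the actin of skeletal muscle, ran from 76.1 CPM in CTL 10 to 2196 CPM in HFB 3. The leading gene of the lymphoid list, Ptprc, ran from 12.6 CPM (CTL 8) to 359 CPM (CTL 14), that of the brown fat list, Cidea, from 75.4 CPM (CTL 14 and HFB 6) to 354 CPM (HFB 3), and that of the endothelial list, Pecam1, from 27.5 CPM (CTL 10) to 256 CPM (HFB 6). Hbb, a globin gene of red cells, ran from 3293 CPM in CTL 14 to 31194 CPM in HFB 2. The epithelial marker Cldn3 and the endothelial marker Cldn5 had 0 counts in all libraries. A score for each of these 7 marker lists, the mean log2 CPM of its genes, did not separate the diets in two-sided exact permutation tests, with p between 0.197 for the red cell list (0.77 higher with HFB) and 0.968 for the brown fat list (0.018 higher with HFB), or adjusted p of at least 0.765 over the 7 lists. When single libraries were left out, the red cell difference ranged from 0.43 to 1.13. The value of 1.13, without CTL 9, had the smallest unadjusted p of such comparisons over the 7 lists (exact permutation p = 0.0216). The highest red cell scores were those of HFB 2 (10.98) and CTL 9 (10.31), so the size depended on which library was left out.

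**Figure D1:**
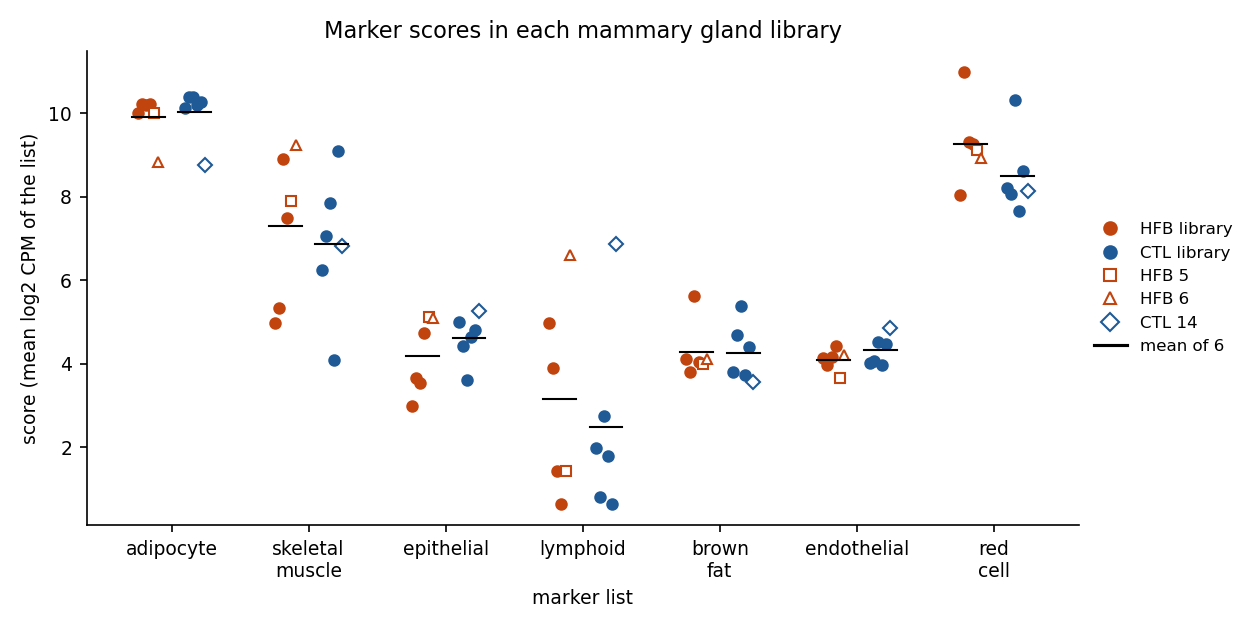
Marker scores of the 12 libraries, as the mean log2 CPM of each list on the vertical axis, for HFB (orange) and CTL (blue), with open symbols for HFB 5, HFB 6 and CTL 14 and a line at the mean of 6. The adipocyte score was 8.84 in HFB 6 and 8.76 in CTL 14 and above 10 in the other libraries, while the lymphoid score was highest in these 2 libraries.

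HFB 5, HFB 6 and CTL 14 stood apart from the other 9 libraries across all genes tested. On the first principal component, with 57.55% of the variance, HFB 6 lay at 101.6, CTL 14 at 68.5 and HFB 5 at 28.5, and the others between -31.5 and -16.6. Rank correlations across genes, which are not independent replicates, were 0.931 to 0.977 among the other 9 libraries. Between them and HFB 6 they were 0.748 to 0.798, for CTL 14 they were 0.805 to 0.853 and for HFB 5 they were 0.885 to 0.943, while HFB 6 and CTL 14 reached 0.952 with each other. HFB 5 was no such match, with 0.886 to HFB 6 and 0.878 to CTL 14, near or under its lowest value with the other 9. Several marker lists moved with these libraries. The epithelial markers summed to 644 CPM in HFB 5, 685 CPM in HFB 6 and 679 CPM in CTL 14, against at most 538 CPM elsewhere, and their scores (5.12, 5.10 and 5.26, next 5.004) and Krt8 (202, 222 and 192 CPM, next 131 CPM) were likewise the highest of the 12 libraries. In HFB 6 and CTL 14 the adipocyte markers summed to 22972 and 17281 CPM, against at least 32680 CPM elsewhere, and the lymphoid markers to 935 and 1166 CPM, against at most 364 CPM elsewhere. The endothelial markers summed to 368 and 393 CPM there, against at most 215 CPM elsewhere, and Pecam1 lay at 256 and 240 CPM, against at most 60.7 CPM. HFB 5 did not share the low adipocyte sum or the high lymphoid and endothelial sums, with 40481 CPM of adipocyte, 26.7 CPM of lymphoid and 130 CPM of endothelial markers. The part of tissue composition, RNA quality or library preparation in these libraries was not tested. The fold changes below and the slopes of the 9 genes are therefore given with and without these 3 libraries, a choice made after the data had been seen.

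**Figure D2:**
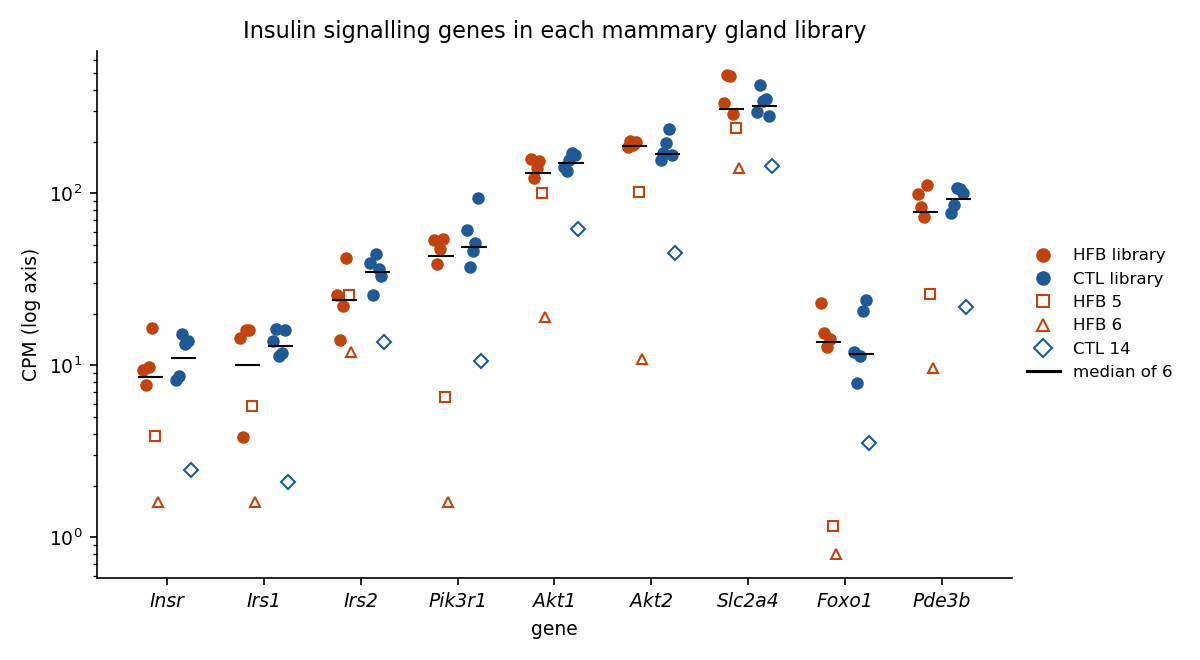
CPM of each of the 9 insulin signalling genes (horizontal axis) in each library, on a log axis, for HFB (orange) and CTL (blue), with a line at the median of 6. Open symbols mark HFB 5, HFB 6 and CTL 14, where Pik3r1 lay at 6.58, 1.60 and 10.6 CPM and in the other libraries at 37.5 CPM or more.

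Insr encodes the insulin receptor. Its level ran from 1.60 CPM through a median of 8.59 to 16.5 CPM with HFB, and from 2.47 CPM through a median of 11.03 to 15.2 CPM with CTL. The lowest values were those of HFB 6, CTL 14 and HFB 5 (3.87 CPM), and the ranges of the diets overlapped almost completely. The log2 fold change of HFB against CTL was -0.33 (95% interval -1.38 to 0.73), and -0.11 (-0.70 to 0.48) without the 3 libraries that stood apart. In the remaining 9 libraries Insr fell into a higher set, made up of HFB 4, CTL 9, CTL 10 and CTL 11 at 13.4 CPM or more, and a lower set at 9.75 CPM or less. The promoter of Insr is shown because Foxo1, another gene of the list, is known to act on the receptor gene through forkhead motifs. In the 300 bases around its start, from RefSeq (GRCr8, chr12:6128754-6129053, minus strand), the forkhead motif GTAAACA was found 1 time when both strands were searched, here as its complement in capitals. Of 33469 rat promoters of this length, 3.78% held the motif, as did 1 of the 6 promoters found for the insulin signalling genes. A match of letters is a description and not a binding site.
Insr promoter: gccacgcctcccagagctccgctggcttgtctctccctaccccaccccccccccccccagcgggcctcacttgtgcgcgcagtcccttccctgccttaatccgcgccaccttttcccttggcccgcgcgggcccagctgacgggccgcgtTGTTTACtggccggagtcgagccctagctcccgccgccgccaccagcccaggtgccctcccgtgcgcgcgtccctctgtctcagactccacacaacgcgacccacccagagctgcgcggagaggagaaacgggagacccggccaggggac

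The insulin receptor substrates Irs1 and Irs2 are the docking proteins that the receptor phosphorylates. Irs1 ran from 1.60 CPM through a median of 10.1 to 16.1 CPM with HFB, and from 2.11 CPM through a median of 12.9 to 16.2 CPM with CTL. HFB 6 and CTL 14 were lowest, but HFB 2 followed at 3.86 CPM (9 counts), under HFB 5 at 5.80 CPM, while the other 8 libraries kept to 11.3 CPM or more. Irs2 ran from 12.03 CPM through a median of 23.9 to 42.3 CPM with HFB, and from 13.7 CPM through a median of 34.8 to 44.3 CPM with CTL. HFB 2 was low here too, at 14.1 CPM, and HFB 5 was not, at 25.5 CPM, so that Irs2 did not set the 3 libraries apart as a group. HFB 2 also had the highest red cell score, 10.98. CTL 9 had the next highest, 10.31, with 11.3 CPM of Irs1 and the highest Irs2 of all libraries. The part of blood in these values was not tested.

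Of the 9 genes, Irs2 had the smallest unadjusted p for diet. Its log2 fold change was -0.44 (95% interval -1.14 to 0.26, adjusted p = 0.999 in edgeR's quasi-likelihood test), and -0.45 (-1.003 to 0.11, adjusted p = 0.891) without the 3 libraries. Only HFB 4 among the HFB libraries lay above the CTL median. The change was -0.69 without HFB 4 (unadjusted p = 0.044 and adjusted p = 0.966 in edgeR) and -0.60 with limma and sample quality weights, and no alternative brought an adjusted p under 0.05. For Irs1 the log2 fold change was -0.30 (-1.45 to 0.85), and -0.13 (-0.82 to 0.56) without the 3 libraries. The log2 ratio of Irs2 to Irs1 within a library was 1.60 ± 0.89 (SD, n = 6) with HFB and 1.58 ± 0.71 (SD, n = 6) with CTL. It was highest in HFB 6 (2.91), CTL 14 (2.70) and HFB 5 (2.14), against 0.48 to 1.97 in the other libraries. Irs1 was thus lower relative to Irs2 in the libraries that stood apart, but on 4, 6 and 15 counts of Irs1. HFB 5 lay little above CTL 9 (1.97), and counting error in these ratios was not tested.

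Pik3r1 encodes the regulatory subunit that couples phosphoinositide 3-kinase to the receptor substrates, and over all 12 libraries its level varied most among the 9 genes. With HFB it ran from 1.60 CPM through a median of 43.3 to 54.4 CPM, and with CTL from 10.6 CPM through a median of 48.8 to 94.4 CPM. The lowest and the highest library differed 58.9-fold over all 12 libraries and 2.51-fold over the 9, where Irs1 (4.203-fold), Irs2 (3.14-fold) and Foxo1 (3.04-fold) ranged more widely. The range of Irs1 was set by HFB 2 at 3.86 CPM, with the rest of the 9 between 11.3 and 16.2 CPM. For Pik3r1 CTL 11 was highest, and without it the other 8 of the 9 libraries lay between 37.5 and 61.4 CPM whatever the diet. The log2 fold change was -0.57 (95% interval -1.96 to 0.81), and -0.25 (-0.74 to 0.24) without the 3 libraries. The promoter is shown for this gene as the most variable over the 12 libraries. In RefSeq (GRCr8, chr2:34697611-34697910, minus strand) its 300 bases held the GC box GGGCGG, marked in capitals on either strand, 7 times, and 75.3% of its bases were G or C against a median of 51.7% over all promoters. The GC box was found in 33.1% of the 33469 promoters, and in 2 of the 6 of the insulin signalling genes, with 3 matches for Irs1. The 6 promoters were those of Insr, Irs1, Pik3r1, Akt1, Akt2 and Foxo1.
Pik3r1 promoter: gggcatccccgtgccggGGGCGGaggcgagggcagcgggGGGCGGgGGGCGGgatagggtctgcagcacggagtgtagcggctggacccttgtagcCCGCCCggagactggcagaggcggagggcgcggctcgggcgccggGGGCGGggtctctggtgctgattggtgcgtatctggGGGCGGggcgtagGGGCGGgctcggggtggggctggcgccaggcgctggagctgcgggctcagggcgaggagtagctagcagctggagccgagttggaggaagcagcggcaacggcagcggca

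Akt1 and Akt2 encode the serine/threonine kinases downstream of phosphoinositide 3-kinase, and Akt2 is the isoform tied most closely to Glut4 in fat and muscle. Akt1 ran from 19.2 CPM through a median of 132 to 159 CPM with HFB, and from 62.0 CPM through a median of 150 to 172 CPM with CTL. Akt2 ran from 10.8 CPM through a median of 189 to 203 CPM with HFB, and from 45.1 CPM through a median of 169 to 236 CPM with CTL. HFB 6 was lowest for both kinases, CTL 14 followed and HFB 5 came next (101 CPM of Akt1 and 102 CPM of Akt2), and the remaining libraries lay close together. Over those 9 libraries the range of Akt1 was 1.39-fold and that of Akt2 1.501-fold. The log2 fold change of Akt1 was -0.26 (95% interval -1.09 to 0.57), and -0.10 (-0.33 to 0.14) without the 3 libraries. That of Akt2 was -0.12 (-1.24 to 0.99), and it turned to 0.08 (-0.19 to 0.34) without them. The intervals over the 9 libraries are the narrowest of the list together with that of Pde3b, and for both kinases they end within 0.34 of 0 on the log2 scale. The 3 libraries left out held the lowest values of both kinases and were chosen after the data had been seen. The narrow intervals follow in part from that choice and are no firmer bound on a diet difference. The log2 ratio of Akt2 to Akt1 was -0.83 in HFB 6 and -0.46 in CTL 14, but 0.01 in HFB 5, which lay within the range of -0.0072 to 0.72 of the other 9.

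Slc2a4 encodes Glut4, the transporter that insulin moves to the cell surface. Its level ran from 140 CPM through a median of 312 to 490 CPM with HFB, and from 144 CPM through a median of 322 to 429 CPM with CTL. HFB 6, CTL 14 and HFB 5 (239.8 CPM) were again lowest, the other 9 libraries lay at 281 CPM or more, and HFB 2 and HFB 3 (484 CPM) were highest. Slc2a4 was the member whose log2 fold change was above 0 with all libraries, 0.09 (95% interval -0.57 to 0.75), and it was 0.22 (-0.17 to 0.62) without the 3 libraries. The sign rested on single libraries, since the change was -0.05 without HFB 2, without HFB 3 or without CTL 14.

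Foxo1, a transcription factor that Akt keeps out of the nucleus, and Pde3b, the phosphodiesterase through which insulin restrains lipolysis, are outputs of the pathway. Foxo1 ran from 0.80 CPM through a median of 13.6 to 23.0 CPM with HFB, and from 3.52 CPM through a median of 11.7 to 24.0 CPM with CTL. HFB 6 had 2 counts, under the detectable level, HFB 5 had 3 and CTL 14 had 10, whereas the other libraries had 20 or more. Pde3b ran from 9.62 CPM through a median of 78.0 to 112 CPM with HFB, and from 21.8 CPM through a median of 93.2 to 107 CPM with CTL. HFB 6, CTL 14 and HFB 5 (25.9 CPM) lay far under the other 9 libraries, which kept to 72.9 CPM or more in both diets. The log2 fold change of Foxo1 was -0.23 (95% interval -1.63 to 1.17), and it turned to 0.11 (-0.55 to 0.78) without the 3 libraries. It was 0.0056 without HFB 5, 0.013 without HFB 6 and 0.019 without CTL 11. For Pde3b the log2 fold change was -0.31 (-1.38 to 0.76), and -0.05 (-0.36 to 0.26) without the 3 libraries.

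Between the diets, 0 of the 9 genes passed an adjusted p of 0.05 in edgeR's quasi-likelihood test, as did 0 of the 9382 genes tested (0%). At an unadjusted p under 0.05 the counts were 0 of the 9 genes and 220 of all genes (2.34%). HFB and CTL were fully separate in 0 of the 9 and in 10 of all genes (0.107%). DESeq2 and limma with sample quality weights also called 0 genes at an adjusted p of 0.05, with 271 and 613 genes at an unadjusted p under 0.05, among them Irs2 with limma. Without HFB 4 Irs2 was under this unadjusted threshold in edgeR too. The median log2 fold change was -0.30 over the 9 genes and 0.00018 over all genes. Of the 9 genes, 8 had a log2 fold change under 0, with HFB 5 and HFB 6 in the HFB group and CTL 14 in the CTL group. Without these 3 libraries 6 of the 9 lay under 0, the median was -0.10 against 0.0086 over all genes, and 0 of the 9 passed either threshold. The background was then 0 of 9480 genes at an adjusted p of 0.05 (0%), 509 at an unadjusted p under 0.05 (5.37%) and 131 whose groups did not overlap (1.38%), with 0 of the 9 genes among the last.

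**Figure D3:**
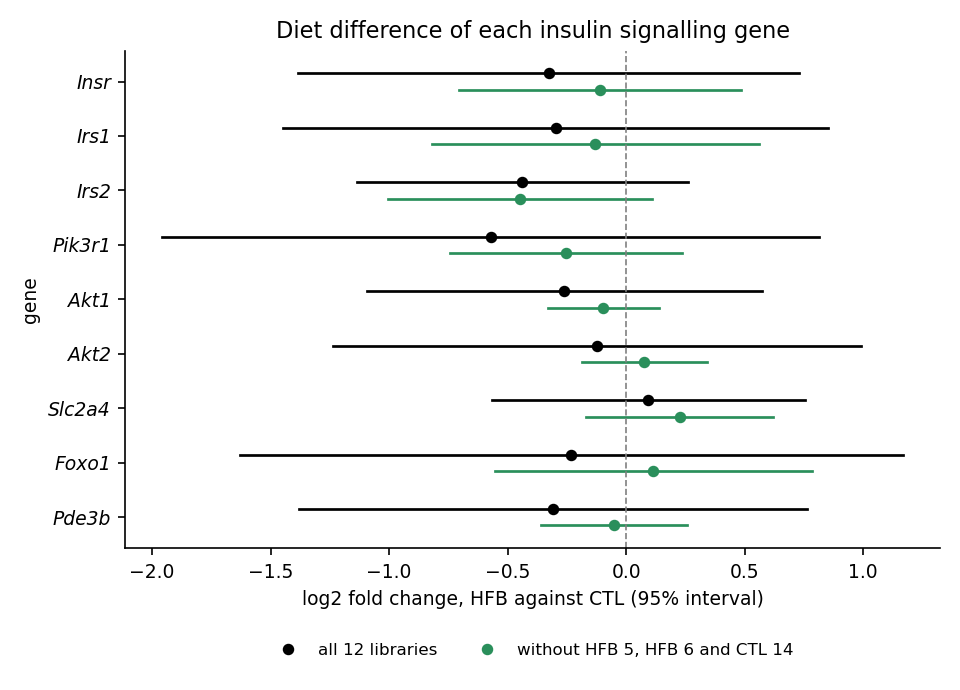
Log2 fold change of HFB against CTL for each gene (points) with its 95% interval (lines), over all 12 libraries (black) and without HFB 5, HFB 6 and CTL 14 (green). Every interval spans 0, and the interval of Akt1 narrows from -1.09 to 0.57 with all libraries to -0.33 to 0.14 without the 3.

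The spread between libraries was larger for most of the insulin signalling genes than for most genes, and more so with the 3 libraries included. The SD of log2 CPM over 12 libraries had a median of 1.05 for the 9 genes and 0.40 for all 9382 genes. It was 1.56 for Pik3r1, above 98.7% of all genes, and 0.59 for Slc2a4, above 73.4%. Over the other 9 libraries the medians were 0.39 and 0.24, and the order of the genes changed. Akt1 (0.15), Akt2 (0.17) and Pde3b (0.22) then varied less than most genes, with 16.3%, 24.1% and 42.8% of all genes below them, while Irs1 (0.60), Irs2 (0.52) and Foxo1 (0.50) were above 93.4%, 89.9% and 89.0%. The spread of Irs1 rested on a single library, HFB 2, at 3.86 CPM against 11.3 to 16.2 CPM in the rest of the 9. These ranks took no account of read depth. The highest count in a library was 45 for Irs1, 57 for Foxo1 and 124 for Irs2. It was 312 for Pde3b, 463 for Akt1 and 636 for Akt2. The part of counting error in the order of the genes was not tested.

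In the libraries that stood apart the 9 genes were low together, and the epithelial markers were at their highest there. Relative to the median of the other 9 libraries, the median log2 difference of the 9 genes was -2.96 in HFB 6, -1.81 in CTL 14 and -1.18 in HFB 5, whereas that of all genes was -0.034, -0.0076 and 0.0012. For single genes the difference in HFB 6 ran from -1.30 for Slc2a4 to -4.46 for Pik3r1. In CTL 14 it ran from -1.23 for Irs2 to -2.39 for Irs1, and in HFB 5 from -0.37 for Irs2 to -2.97 for Foxo1. The order of the genes thus differed between these libraries, and Foxo1 and Pik3r1 were far lower in HFB 5 than its Akt1 (-0.61) and Slc2a4 (-0.53). In HFB 6 and in CTL 14 all 9 genes lay under each of the other 9 libraries, as did 36.8% and 32.8% of all genes. In HFB 5 all but Irs1 and Irs2 did, as did 27.7% of all genes. Counting genes lower in all 3 than in every other library gave 7 of the 9 and 1477 of 9382 genes (15.7%). None of the 9, and 1203 of all genes (12.8%), lay above every other library in each of the 3. These libraries were set apart on all genes, these 9 included, so the counts are a description with no test.

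The 9 genes rose with the adipocyte score over all 12 libraries, with diet in the model. The rise was past an adjusted p of 0.05 in edgeR for 9 of the 9, against 2453 of 9373 genes (26.2%) that rose and 2507 (26.7%) that fell, so more than 5 in 10 genes followed this score in some direction. Per unit of score, a doubling of the geometric mean of the markers, the log2 change was 2.01 (SE 0.50) for Pik3r1, 1.84 (SE 0.40) for Irs1, 1.82 (SE 0.30) for Akt2 and 0.95 (SE 0.17) for Slc2a4. Irs2 had the smallest slope at 0.86 (SE 0.24, adjusted p = 0.0086 in edgeR) and Foxo1 the largest adjusted p at 0.026 with a slope of 1.71 (SE 0.59). The calls depended on which libraries were included, and a fit without HFB 6 and CTL 14 alone was not made. Without HFB 6 the rising calls fell to 6 of the 9 genes and 1320 of 9443, without CTL 14 to 7 of the 9 and 1711 of 9458, and without the 3 libraries to 0 of the 9. The slopes without the 3 libraries were under 0 for Irs1 (-0.41), Irs2 (-0.30), Pik3r1 (-1.57), Akt1 (-0.52) and Foxo1 (-2.83). They were above 0 for Insr (0.99), Akt2 (0.13), Pde3b (0.14) and Slc2a4 (1.305, 95% interval -0.48 to 3.09). No gene out of 9471 then rose (0%) or fell (0%) at an adjusted p of 0.05, and 633 had an unadjusted p under 0.05. The adipocyte score of HFB 5 was 10.01, within the range of the other libraries, although 7 of the 9 genes, and 27.7% of all genes, lay under all of those there.

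Glut4 is also a muscle protein, and no member had a slope on the skeletal muscle score past the threshold. Of the 9 genes 0 rose and 0 fell at an adjusted p of 0.05 in edgeR, against 63 of 9370 genes that rose (0.672%) and 0 that fell (0%). The log2 change of Slc2a4 per unit of score was -0.09 (95% interval -0.30 to 0.12), with a muscle score between 4.10 in CTL 10 and 9.24 in HFB 6. Without the 3 libraries it was -0.01 (-0.13 to 0.11), and 0 of the 9 genes passed, against 85 of 9468 genes that rose (0.898%) and 7 that fell (0.0739%). The 3 highest levels of Slc2a4, in HFB 2, HFB 3 and CTL 8, went with muscle scores of 5.35, 8.91 and 7.06, and HFB 3 also had the most Acta1. High Slc2a4 was found at low and at high muscle scores, and the part of muscle in its level was not tested.

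**Figure D4:**
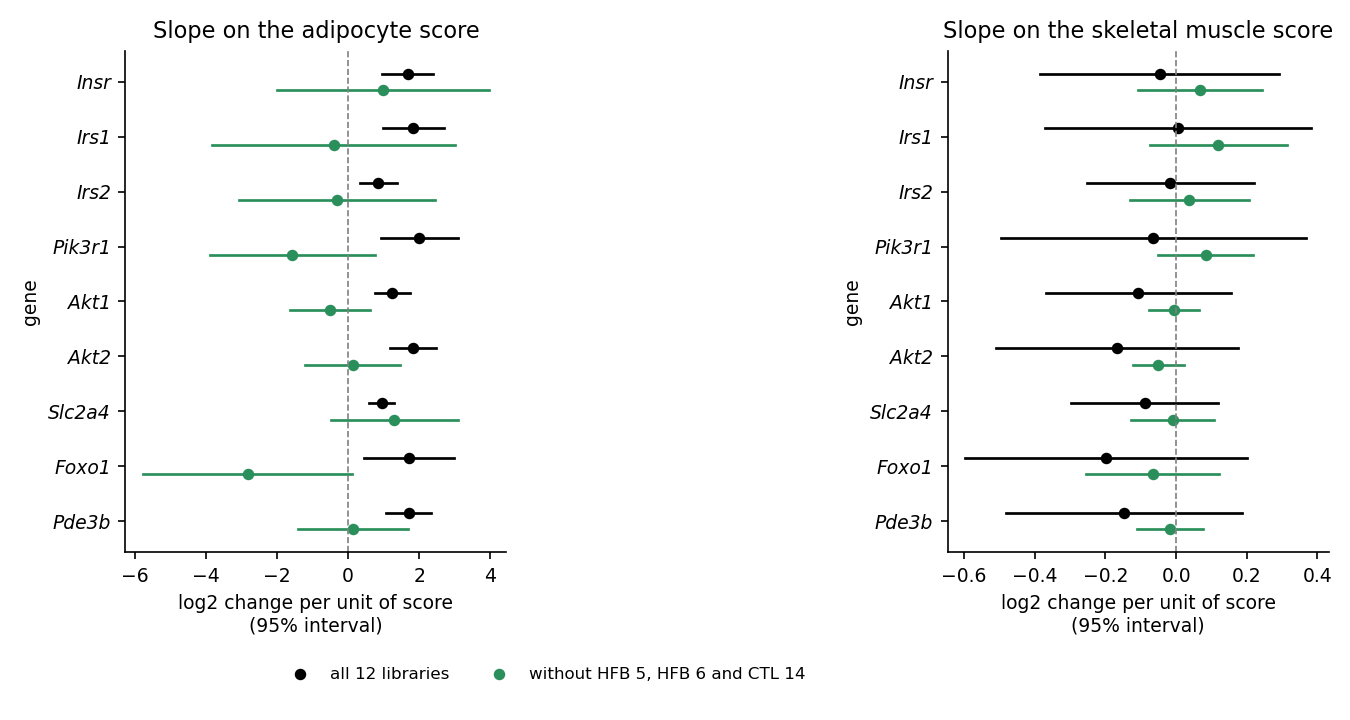
Log2 change of each gene per unit of the adipocyte score (left) and of the skeletal muscle score (right), points with 95% intervals, over all 12 libraries (black) and without HFB 5, HFB 6 and CTL 14 (green). The adipocyte slopes of all 12 libraries lie above 0 (0.86 to 2.01), while every interval without the 3 libraries and every muscle interval spans 0.

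Within the 9 libraries that lay together, the relations of Slc2a4 to the other genes were mostly negative, and none passed after adjustment. The libraries fall into separate clusters, so relations among the insulin signalling genes are given over these 9 libraries alone. Of the 8 pairs with Slc2a4, 7 had a Pearson r under 0, against 12 of all 36 pairs of the 9 genes, and 3 had an unadjusted exact permutation p under 0.05. Each r was repeated without the 2 libraries farthest from the median of the gene listed first in the pair, so these values are not comparable between pairs. With Irs1, r went from -0.49 to 0.12 without HFB 2 and CTL 9, farthest for Irs1. With Pde3b it went from -0.59 to -0.19 without HFB 2 and HFB 3, farthest for Slc2a4. With Akt1 it went from -0.70 to -0.39 without HFB 2 and CTL 8, farthest for Akt1. With Pik3r1 the r was -0.77 (exact permutation p = 0.00746, adjusted p = 0.142 over the 36 pairs) and the Spearman rho -0.87 (exact permutation p = 0.00451, adjusted p = 0.162). Without CTL 8 and CTL 11, farthest from the median of Pik3r1, this r was -0.82. With Irs2 the r was -0.80 (exact permutation p = 0.00938, adjusted p = 0.142) and rho -0.62 (exact permutation p = 0.0857, adjusted p = 0.389), and the r was -0.49 without HFB 2 and HFB 3. The strongest pair in the same direction was Insr with Pde3b, with an r of 0.83 (exact permutation p = 0.0118, adjusted p = 0.142) and rho of 0.80 (exact permutation p = 0.0138, adjusted p = 0.249), and r was 0.71 without HFB 4 and CTL 9. Of the 36 pairs, 8 had an unadjusted p under 0.05 for r and 0 passed after adjustment. HFB 2, HFB 3 and CTL 8 had the highest Slc2a4 of the 9 libraries and the lowest Akt1, and each of them was among the 4 lowest for Pik3r1 and for Irs2.

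**Figure D5:**
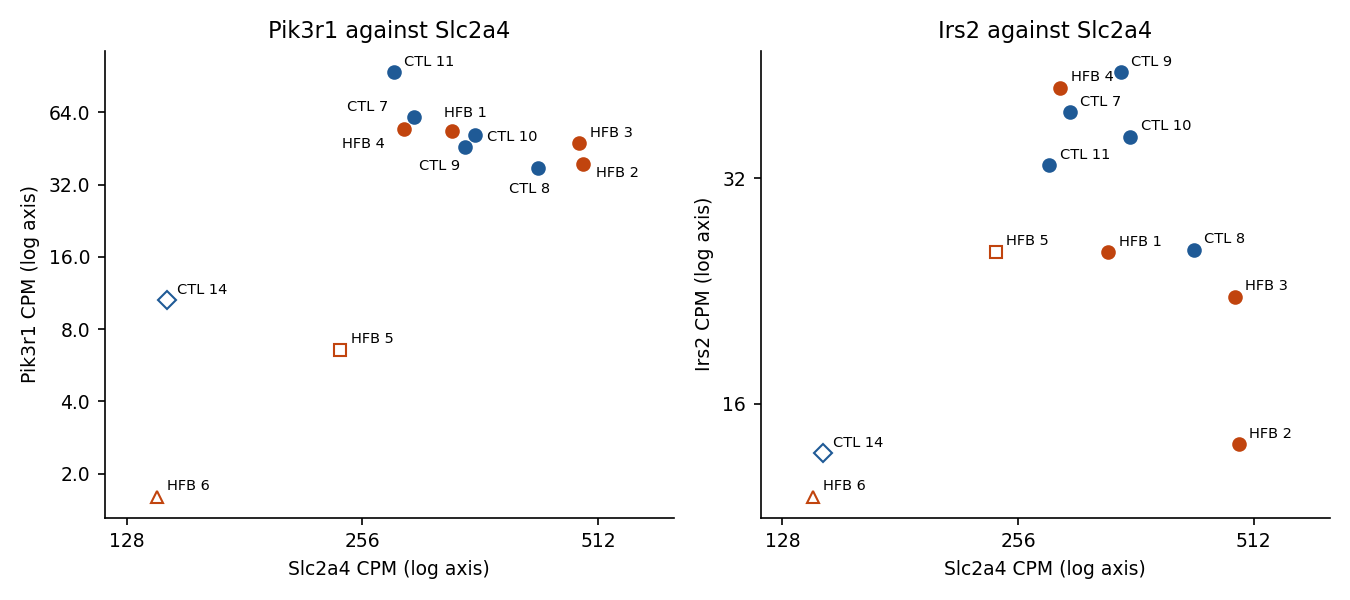
Pik3r1 (left) and Irs2 (right) against Slc2a4 in each library, CPM on log axes, for HFB (orange) and CTL (blue), with open symbols for HFB 5, HFB 6 and CTL 14. Among the filled symbols Pik3r1 and Irs2 were lower where Slc2a4 was higher (r of -0.77 and -0.80 over 9 libraries), and HFB 6 and CTL 14 were low on both axes.

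The genes closest to Slc2a4 in pattern over the 12 libraries, by Pearson r of log2 CPM, were Mtch2 (0.98), Pgrmc2 (0.98), Rtn4 (0.97), Pex11a (0.97) and Dld (0.97). Mtch2 encodes a protein of the outer mitochondrial membrane, Pex11a a peroxisomal membrane protein and Dld a subunit of mitochondrial dehydrogenases. For these genes r over the 9 libraries was 0.97, 0.92, 0.90, 0.90 and 0.87. They were picked from all genes tested for the highest r over the 12 libraries, which include the 9. High values are therefore partly a result of the choice, and those over the 9 are no independent support. For Akt2 the closest were Hsdl2 and Car3 (0.99 each), but over the 9 libraries r was 0.65 and 0.72. Akt1 was closest to Myo1c and Rhobtb3 (0.99 each, 0.72 and 0.76 over the 9), and Myo1c is a motor protein of Glut4 vesicles. Pde3b was closest to Adipor2, an adiponectin receptor (0.996 over 12 libraries, 0.92 over the 9). The remaining genes were paired with Fam13a and Klhl24 for Insr (0.98 each), Fem1b (0.96) and Lima1 (0.95) for Irs1, Zfp609 and Slc25a23 for Irs2 (0.95 each), Erlin2 and Otud6b for Pik3r1 (0.99 each), and Atf2 (0.99) and Ireb2 (0.98) for Foxo1. The 3 libraries that stood apart widen the range behind the values over 12 libraries, and the r over the 9 for these further genes was between 0.78 and 0.96. Ranked by r over the 9 libraries instead, most of the closest genes were others. Mtch2 was again the closest to Slc2a4, and Zfp609 and Adipor2 were again among the 2 closest to Irs2 and Pde3b.

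Around the 10 genes, 97 other genes of the pathway were listed by role, of which 87 were in the table of counts and 74 passed the filter. None of the 74 passed an adjusted p of 0.05 for diet in edgeR (0% of all genes), an unadjusted p of 0.05 (2.34% of all genes) or had separate diet groups (0.107% of all genes). Their median log2 fold change was -0.028 with 33 above 0 and 41 below. Without the 3 libraries the median was 0.028, and the single gene with an unadjusted p under 0.05 (5.37% of all genes), Pik3cd, is described below as a gene chosen after its values were seen. Fold changes in the next paragraphs are for all 12 libraries, each followed by the value without the 3 libraries, and several were much nearer 0 or turned.

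Upstream of the receptor, Ins1 and Ins2, the insulin genes, had 0 counts, and 3 of the 7 ligands and related receptors passed the filter, with a median of -0.23 (-0.32 without the 3 libraries). Igf1, insulin-like growth factor 1, had a log2 fold change of -0.24 (SE 0.32, then -0.38), and Igf2r, a receptor that clears Igf2, of -0.14 (SE 0.22, then -0.087). All 8 adaptors in the table passed, with a median of -0.16 that went to 0.0023 without the 3 libraries. Gab1, a docking protein, lay at -0.25 (SE 0.20, then -0.30) and Sh2b2, an adaptor of the receptor, at 0.31 (SE 0.28, then 0.42).

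Of the kinases from phosphoinositide 3-kinase to Akt, 9 of 10 passed, with a median of 0.0059 (then 0.050). Mtor, the kinase of both mTOR complexes, lay at -0.17 (SE 0.19, then -0.050). Its partner Mlst8 lay at 0.19 (SE 0.30) and turned to -0.041, and it was higher in each of the 3 libraries than in every other. The catalytic subunits went different ways in the libraries that stood apart. Pik3cb, the beta subunit, lay at 0.40 CPM in HFB 6, 1.76 CPM in CTL 14 and 4.25 CPM in HFB 5, against diet medians of 19.3 and 18.8 CPM. Pik3cd, the delta subunit of leukocytes, lay at 189 CPM in HFB 6 and 240 CPM in CTL 14 but 17.0 CPM in HFB 5, and the lymphoid score was 6.60, 6.88 and 1.44 in these libraries. Without the 3 libraries the log2 fold change of Pik3cd was 1.49 (adjusted p = 0.876 in edgeR), against 0.26 with all libraries, and HFB 1 and HFB 2 had the highest lymphoid scores of those left, 4.99 and 3.90. The part of lymphoid cells in these values was not tested.

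Among the brakes of the pathway, 14 of 18 genes passed with a median of -0.018, which turned to 0.096 without the 3 libraries. Enpp1, which inhibits the receptor, lay at -0.22 (SE 0.28, then -0.20) and Grb14, an adaptor that binds and inhibits it, at -0.23 (SE 0.33, then -0.32). Of the mTORC1 and protein synthesis genes 7 passed with a median of 0.11 (then 0.027). Eif4ebp1, a repressor of translation, lay at 0.26 (SE 0.17) and Tsc2, an inhibitor of mTORC1, at 0.23 (SE 0.27), but without the 3 libraries they lay at 0.027 and 0.017. The glycogen genes, 5 of 5 with a median of 0.17 (then 0.084), included Gys1, the muscle form of glycogen synthase, at 0.21 (SE 0.12, then 0.11) and Ppp1ca, a phosphatase catalytic subunit, at 0.19 (SE 0.13, then 0.075).

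Glut4 traffic was represented by 14 tested genes with a median of -0.020 (then -0.0076). Slc2a1, which encodes the insulin-independent transporter Glut1, lay at -0.35 (SE 0.22, then -0.23), from 11.1 to 19.3 CPM with HFB and from 15.7 to 32.4 CPM with CTL, with its highest value in CTL 14, where Slc2a4 was lowest in that diet. Stxbp3, a regulator of vesicle fusion, lay at -0.27 (SE 0.18, then -0.076). Of these 14 genes, 5 were lower in each of the 3 libraries than in every other library (15.7% of all genes) and 3 were higher (12.8% of all genes). Myo1c, for example, lay at 15.2, 78.2 and 136 CPM in HFB 6, CTL 14 and HFB 5 against diet medians of 244 and 285 CPM.

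The Foxo factors and targets, 8 of 10 tested, had a median of -0.053 with and without the 3 libraries. Foxo3, a further forkhead factor, lay at -0.61 (SE 0.61, then -0.41) at levels of at most 11.8 CPM, and Cdkn1b, a cell cycle inhibitor, at -0.25 (SE 0.16, then -0.080). Of the cAMP and lipolysis genes 6 passed with a median of -0.0006 (then 0.060). Adrb3, the beta-3 adrenergic receptor, lay at 0.28 (SE 0.34, then 0.053) and Lipe, hormone-sensitive lipase, at 0.09 (SE 0.24, then 0.11). Lipe kept to between 409 CPM in CTL 14 and 1053 CPM in HFB 4.

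With the adipocyte score 33 of the 74 pathway genes rose and 12 fell at an adjusted p of 0.05 in edgeR, beside the 26.2% and 26.7% of all genes, and without the 3 libraries 0 of all genes did. With the muscle score 0 rose and 0 fell. In each of the 3 libraries 19 of the 74 lay under every other library and 7 lay above, beside 15.7% and 12.8% of all genes, so the pathway list held genes of both kinds where the 9 insulin signalling genes held those of the lower kind alone. That contrast between the lists was not tested.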

How the data were processed

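RNA from 12 whole mammary glands was sequenced. The authors deposited raw read counts per Entrez gene, without normalization. The submitters' processing notes name bcl2fastq, CASAVA 1.8, TopHat, DESeq and the build rn4 without roles; the counting program and the use of strand are not given in the sources used here. Entrez identifiers were matched to symbols through the RefSeq gene table of GRCr8 (16351 of 16511).

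Counts were analysed with edgeR 4.0.16 in R 4.3.3 (filterByExpr, TMM, quasi-likelihood test, Benjamini-Hochberg adjustment over all genes tested, threshold 0.05), after a trial on simulated data. Standard errors and 95% intervals were taken from the test statistic. Slopes on a marker score (mean log2 CPM, prior count 2) had diet as covariate, and the genes of the score were left out. Single values were compared by exact permutation in Python 3.11.15. No pair of libraries of a diet agreed within sampling noise (chi-square per degree of freedom at least 6.69 over 30 pairs).

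Alternatives were DESeq2 1.42.0, its size factors, upper-quartile factors, no filter, a filter of 10 counts in each library, score covariates, limma 3.58.1 with voom and quality weights per sample, a prior count of 0.5 and leaving out each library. Leaving out HFB 5, HFB 6 and CTL 14 together was added after the data had been seen. The insulin signalling genes, marker lists and pathway list were chosen with earlier results of these data known. Named were the listed genes, the 2 genes of smallest p in each pathway role, pathway genes whose diets do not overlap, the leading gene of each marker list, and the genes of highest Pearson r, 5 for Slc2a4 and 2 for each other gene, of which 1 is not reported here. Pik3cb, Pik3cd, Ins1, Ins2, Cldn3 and Cldn5 were named after their values had been seen. Tbc1d4 and 10 other listed pathway genes were not analysed here.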

Additional observations from a re-analysis of the deposited data

Results flagged for a closer look

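The gap between the highest or lowest library and the nearest other library of its diet was compared with the range of the diet in 36 groups of 6 libraries, for the 9 insulin signalling genes, the 7 marker scores, the total counts and the first principal component. In 11 of them the gap was larger than Dixon's 95% critical value, which chance exceeds in about 1 in 20 single groups of normally distributed values. The groups share libraries and are not independent, so their number is a description and no test.

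CTL 14 stood apart in 6 of these. It had 2.11 CPM of Irs1, where the next lowest CTL library had 11.3, 62.0 CPM of Akt1 (next 136) and 21.8 CPM of Pde3b (next 77.2). Its lymphoid score was 6.88 (next 2.74), its adipocyte score 8.76 (next 10.12), and it lay at 68.5 on the first principal component (next -16.6). In the HFB group, where HFB 5 and HFB 6 were both low for most of the 9 genes, no gene met this rule. The adipocyte score of HFB 6 was 8.84 (next 10.0005).

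The other values do not belong to these libraries. The brown fat score of HFB 3 was 5.62 (next 4.11) and the red cell score of CTL 9 was 10.31 (next 8.62). Total counts were 2320267 in HFB 1 (next 2629159) and 2944680 in CTL 7 (next 2570080). The causes of these values were not tested.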

How the results depend on the processing

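Diet called 0 genes in every alternative, with and without each library. At an unadjusted p under 0.05 it called 220 genes, but 613 with limma, 547 with the adipocyte score as covariate and 509 without HFB 5, HFB 6 and CTL 14, and between 135 (without HFB 5) and 587 (without CTL 14) with a library left out. The sign of the 9 genes held in 75 of 77 values under the other alternatives. Without the 3 libraries it turned for Akt2 (0.076) and Foxo1 (0.11). With a library left out it turned in 8 of 108 values, with ranges of -0.31 to 0.12 for Akt2, -0.054 to 0.25 for Slc2a4 and -0.57 to 0.019 for Foxo1. The other genes kept their sign but moved in size, from -0.66 to -0.11 for Insr, -0.51 to -0.075 for Irs1, -0.69 to -0.30 for Irs2, -0.78 to -0.29 for Pik3r1, -0.41 to -0.037 for Akt1 and -0.52 to -0.079 for Pde3b. With at least 10 counts in every library, Insr, Irs1, Pik3r1 and Foxo1 were not tested.

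The muscle slope was called for 63 genes, and for 14 with at least 10 counts in every library (fewer genes tested), 105 with limma, 118 with the adipocyte score as further covariate and 48 to 78 with a library left out. Slopes near 0 changed sign. With limma they were 0.016 for Insr, 0.019 for Irs2 and 0.0045 for Pik3r1, with the adipocyte score 0.010 for Irs2, and without the 3 libraries 0.067 for Insr, 0.037 for Irs2 and 0.084 for Pik3r1. With a library left out they ranged from -0.12 to 0.037 for Insr, -0.077 to 0.099 for Irs1, -0.067 to 0.040 for Irs2 and -0.24 to 0.039 for Pik3r1. The other genes kept their sign but moved in size, from -0.17 to -0.029 for Slc2a4 and -0.18 to -0.017 for Akt1. For Akt2, Foxo1 and Pde3b the ranges were -0.25 to -0.070, -0.42 to -0.11 and -0.23 to -0.054.

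The adipocyte slope was called for 4960 genes, for 2916 to 5309 with a library left out and for 0 without the 3 libraries, where it turned for Irs1 (-0.41), Irs2 (-0.30), Pik3r1 (-1.57), Akt1 (-0.52) and Foxo1 (-2.83) and was 0.99 for Insr, 0.13 for Akt2, 1.305 for Slc2a4 and 0.14 for Pde3b. No longer past the threshold were Irs1 (1.49), Pik3r1 (1.54) and Foxo1 (1.26) with limma, Irs2 (0.85), Pik3r1 (1.55) and Foxo1 (1.23) without HFB 6, and Irs2 (0.74) and Foxo1 (2.28) without CTL 14, against 1.84, 2.01, 1.71 and 0.86 for Irs1, Pik3r1, Foxo1 and Irs2 with all libraries. Slopes also moved in size with a library left out, from 1.33 to 2.89 for Akt2 and 0.83 to 1.99 for Akt1. For Pik3r1, Pde3b, Insr and Slc2a4 the ranges were 1.55 to 2.83, 1.41 to 2.24, 1.55 to 1.97 and 0.87 to 1.12.

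With a library left out, score differences ranged from -0.35 to 0.11 (adipocyte), -0.10 to 0.91 (skeletal muscle), -0.25 to 0.24 (brown fat), 0.43 to 1.13 (red cell), 0.000076 to 1.58 (lymphoid), -0.63 to -0.19 (epithelial) and -0.30 to -0.11 (endothelial). The cause of these changes was not tested. Pairing of HFB with CTL libraries was not possible, as no replicate number occurs in both. Depth limits Foxo1, Insr, Irs1 and Pik3r1 in HFB 6, at 2 to 4 counts.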
